A study of Trametes versicolor with 17 samples.

Results

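The heme-thiolate peroxidases HTP1, HTP2 and HTP3 of the white-rot fungus Trametes versicolor are described here across 17 mRNA libraries in 6 groups. The rule that picks these 3 of 14296 gene models uses gene identifiers and positions alone; the family was taken up with earlier results of these data known. Heme-thiolate peroxidases are secreted fungal enzymes that hold their heme through the sulfur of a cysteine, as cytochrome P450 enzymes do, whereas the lignin and manganese peroxidases of the same fungi hold it through a histidine. Members characterised in other fungi, such as the chloroperoxidase of Leptoxyphium fumago and the unspecific peroxygenase of Agrocybe aegerita, use hydrogen peroxide to halogenate substrates or to insert oxygen into aromatic and aliphatic compounds. What each of HTP1, HTP2 and HTP3 acts on is not stated in the sources used here.

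All libraries came from mycelial pellets with 1 genotype label, ASM 8036, in medium of 2% malt extract. Control pellets received no supplement, and exposed pellets received 5% of a water fraction left by hydrothermal liquefaction of waste, called the aqueous phase. The phase labelled FW came from food waste, SD from waste of salad dressing and AB from biomass of algae. The batch labelled main held 3 libraries each of control, FW, SD and AB after 3 days. The batch labelled preliminary held 2 control and 3 AB libraries after 7 days, so time and batch cannot be told apart. The genes were named by matching coordinates to RefSeq's annotation of strain FP-101664 SS1, and the strain of the pellets carries another label. The pellets are mixed tissue, in which fewer hyphae with a transcript and less of it per hypha cannot be told apart.

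Libraries held 15459249 to 18770043 counts at 3 days and 27654678 to 35223283 at 7 days. On the scale of counts-per-million (CPM), 3 counts correspond to at most 0.194 and 0.108. Libraries of 1 group differed by far more than counting noise at both times. The chi-square per degree of freedom between replicate libraries was 13.1 to 100.3 at 3 days and 171 to 1012 at 7 days. The scaling factors of the 7-day controls were 1.24 and 0.861, against 0.930 to 1.12 at 3 days.

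HTP1 (gene_3229, TRAVEDRAFT_26967) lies on the minus strand of scaffold 3, from 598991 to 600060, with 2 exons and a model length of 1012 bases. HTP2 (gene_11957, TRAVEDRAFT_154915) lies on the plus strand of scaffold 12, from 881424 to 882682, with 3 exons and 1156 bases. HTP3 (gene_11958, TRAVEDRAFT_23785) follows on the same strand from 883884 to 884984, with 4 exons and 912 bases. HTP2 and HTP3 are thus a head-to-tail pair with 1201 bases and no gene model between them. None of the 3 models overlaps another model. The files do not say how reads that match several genes were counted, so the values of this pair are uncertain to the extent that the genes share sequence.

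HTP3 was among the abundant transcripts of the 3-day controls, and HTP1 and HTP2 were far lower. Per length, as CPM per kilobase of model (RPKM, on scaled library sizes), HTP3 stood at 1928, 1927 and 2090 RPKM in the control libraries. This placed it between rank 47 and rank 56 of the 14296 gene models. HTP2 stood at 55.0, 66.7 and 44.6 RPKM and HTP1 at 50.2, 94.2 and 31.4 RPKM. HTP3 lay above both other genes in 3 of 3 controls, while the ranges of HTP1 and HTP2 overlapped and HTP2 lay above HTP1 in 2 of 3. Replicate spread was narrow for HTP3 and wide for HTP1, with coefficients of variation of 4.73% and 55.0% for their CPM.

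The order of the 3 genes differed between groups. HTP3 led in each of the 9 control, FW and SD libraries at 3 days, and HTP1 and HTP2 changed places within each of these groups. In 3 of 3 AB libraries at 3 days the order was HTP1, HTP3, HTP2, with ranges of 57.7 to 92.1, 37.9 to 42.5 and 4.02 to 6.59 RPKM that did not overlap. Both 7-day controls had the same order, at 99.5 and 149 RPKM for HTP1, 3.28 and 4.79 for HTP3, and 0.619 and 0.567 for HTP2. In the 7-day AB libraries HTP1 and HTP3 overlapped, at 4.70 to 38.9 and 3.94 to 12.2 RPKM, and HTP3 led in 2 of 3. HTP2 was the lowest of the 3 genes in all 8 of the AB and 7-day libraries.

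**Figure D1:**
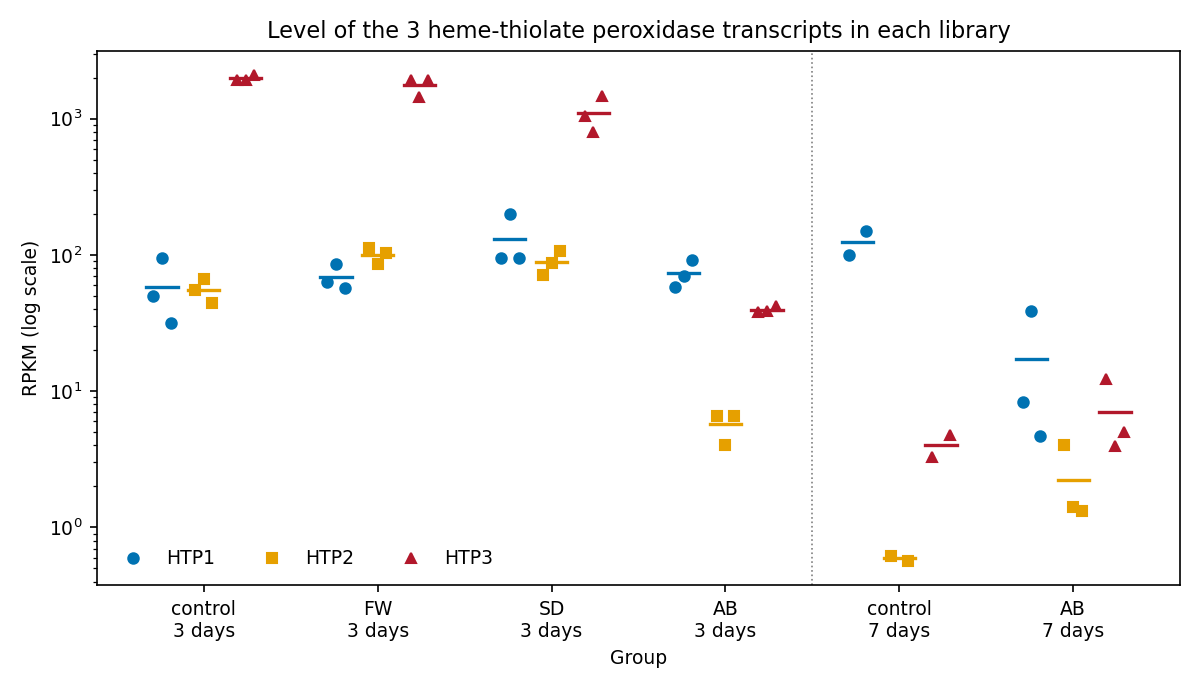
RPKM of HTP1, HTP2 and HTP3 (log axis) in each of the 17 libraries by group, with a line at each group mean. HTP3 lies between 803 and 2090 RPKM in the control, FW and SD libraries at 3 days and between 3.28 and 42.5 RPKM in all others.

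The share of each gene in the summed HTP counts per kilobase does not depend on how libraries are scaled. HTP3 made up 92.3% to 96.5% of this sum in the 3-day controls, 89.3% to 92.4% under FW, 73.7% to 88.0% under SD and 30.1% to 37.1% under AB. HTP1 made up 1.45% to 4.51% in the 3-day controls, 5.68% to 18.3% under SD and 56.5% to 65.3% under AB. In the 7-day controls HTP1 held 96.2% and 96.5% of the sum. Under AB at 7 days its share was 33.9%, 87.9% and 42.7% in replicates 1, 2 and 3, with replicate 2 apart from the other two. The sum itself was 2096 ± 66.4 RPKM in the 3-day controls and 1936 ± 285 under FW (SD, n = 3 each). It was 1327 ± 312 under SD and 119 ± 20.1 under AB.

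**Figure D2:**
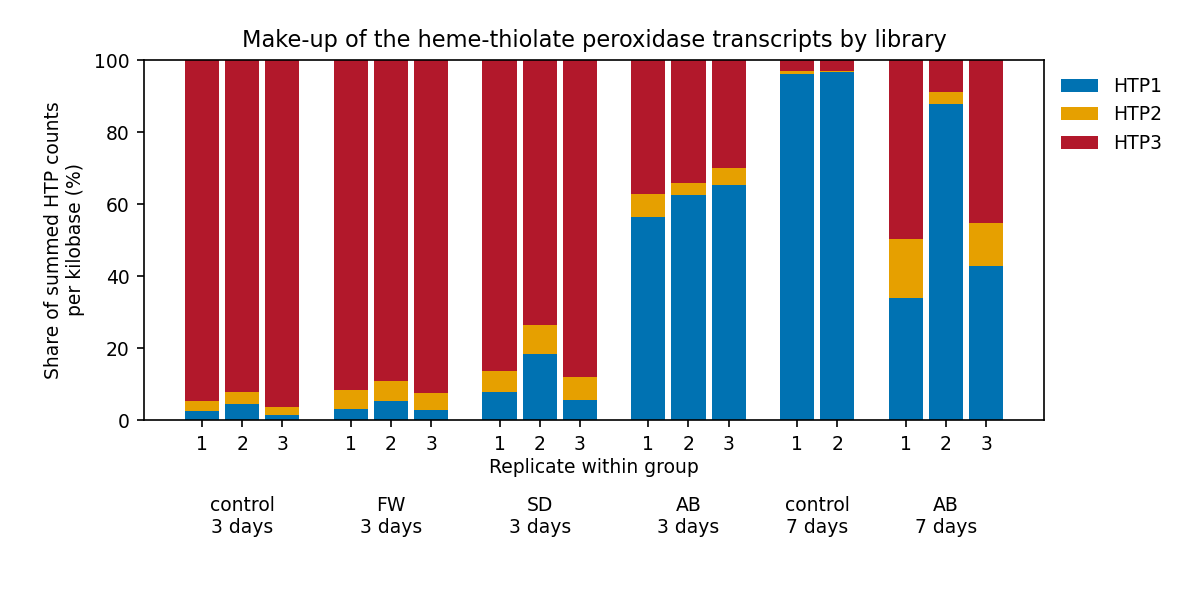
Share (%) of HTP1, HTP2 and HTP3 in their summed counts per kilobase, 1 bar per library, grouped by condition and time. HTP3 fills most of each bar in the control, FW and SD libraries at 3 days, and HTP1 fills 96.2% and 96.5% in the 7-day controls.

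The AB phase was compared with control at 3 days to find how these genes respond to the algal feedstock. HTP3 and HTP2 fell, and HTP1 was not called. HTP3 had 1759, 1757 and 1906 CPM in the controls and 34.6, 35.1 and 38.7 CPM under AB. The AB values lay close together and far below all controls. The fitted log2 fold change of HTP3 was -5.64 (SE 0.23, adjusted p = 7.72e-10), and its mean in CPM was 50.0 times lower than in the controls. It ranked 94th from the most negative of the 10838 fold changes tested.

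HTP2 had 63.6, 77.1 and 51.5 CPM in the controls and 7.62, 4.64 and 7.61 CPM under AB, again without overlap. It changed by a log2 fold of -3.27 (SE 0.23, adjusted p = 8.93e-08), and its rank was 336. HTP1 had 50.9, 95.3 and 31.8 CPM in the controls and 58.4, 71.3 and 93.2 CPM under AB, all within the control range. This gave a log2 fold change of 0.33 and a 95% interval of -0.47 to 1.13 (adjusted p = 0.459). Without control replicate 2, the highest control, it was 0.85 (adjusted p = 0.0488). Calls covered 2 of 3 members, both lower. Among all tested genes they covered 62.4%, with 29.8% higher and 32.6% lower, so the count of members is near the background. In 2 of 3 members the libraries did not overlap, as in 69.0% of all tested genes.

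Under FW only HTP2 was called at 3 days, and it rose. Its FW libraries had 129.9, 99.6 and 118.5 CPM, all above the highest control of 77.1 CPM. The log2 fold change was 0.86 (SE 0.21, adjusted p = 0.00473), and each fit that left out 1 library kept it between 0.72 and 1.01 with an adjusted p of at most 0.0242. HTP3 had 1760.4, 1308 and 1765 CPM under FW, of which 2 libraries lay within the control range and replicate 2 below it. This gave -0.17 on the log2 scale, with an interval of -0.58 to 0.24 (adjusted p = 0.502). HTP1 had 64.2, 87.2 and 57.4 CPM under FW, all within the control range (0.23, interval -0.57 to 1.03, adjusted p = 0.636). Of all tested genes 45.8% were called under FW, 22.4% higher and 23.4% lower, and the libraries of 53.0% did not overlap, against 1 of 3 members in each count.

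Under SD all 3 genes were called, HTP3 lower and HTP1 and HTP2 higher. HTP3 had 953, 733 and 1348 CPM, a wider spread than in the controls and below each of them. This was a log2 change of -0.84 (SE 0.19, adjusted p = 0.00844), and it stayed called without any 1 of the 6 libraries (adjusted p up to 0.0370). HTP2 had 82.3, 100.6 and 123.7 CPM under SD, above the highest control of 77.1 CPM by a small margin in replicate 1. Its log2 fold change was 0.67 (SE 0.21, adjusted p = 0.0353).

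HTP1 had 96.2, 201.8 and 96.5 CPM under SD, of which replicates 1 and 3 lay just above the highest control of 95.3 CPM. Its log2 fold change was 1.15 (SE 0.37, adjusted p = 0.0438). The HTP1 call was lost without control replicate 1 or 3 or SD replicate 2, with log2 fold changes of 1.06, 0.85 and 0.72 (adjusted p 0.126 to 0.188). The HTP2 call was lost without control replicate 1 or 3 or SD replicate 2 or 3, with log2 fold changes of 0.68, 0.54, 0.71 and 0.53 (adjusted p 0.0635 to 0.139). Under SD 21.1% of all tested genes were called, 10.3% higher and 10.9% lower, or 2291 genes, a count of 1361 without control replicate 3. The libraries did not overlap in 3 of 3 members and in 35.9% of all tested genes.

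**Figure D3:**
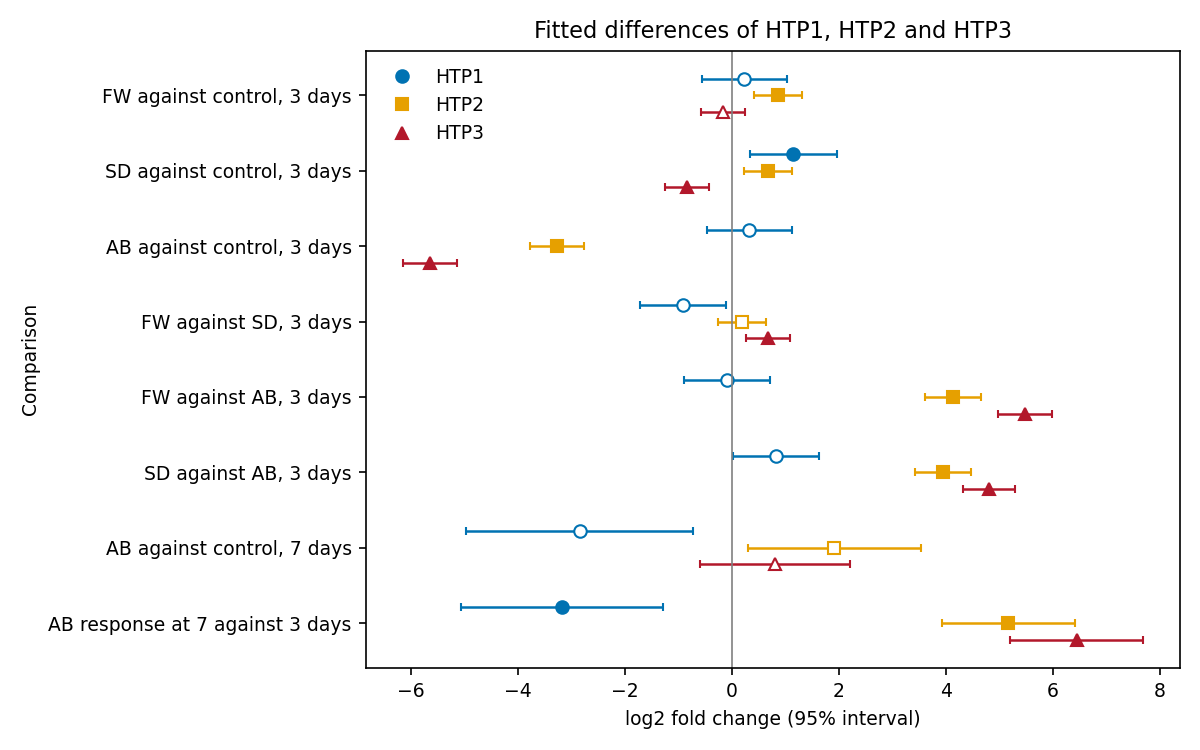
Fitted log2 fold changes of HTP1, HTP2 and HTP3 with 95% intervals in the 8 comparisons; filled symbols have an adjusted p under 0.05. HTP2 and HTP3 lie at -3.27 and -5.64 for AB against control at 3 days, where the interval of HTP1 spans 0.

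The 3 exposures share their control libraries, so they were also compared with each other. On the log2 scale HTP3 under FW exceeded HTP3 under AB by 5.48 (SE 0.23, adjusted p = 2.32e-09), and under SD it exceeded it by 4.81 (SE 0.22, adjusted p = 3.49e-09). HTP2 was higher by 4.13 under FW (SE 0.24, adjusted p = 3.45e-08) and by 3.95 under SD (SE 0.24, adjusted p = 3.53e-08). For both genes every FW and SD library lay above every AB library. HTP1 did not pass the test in either comparison. The log2 difference was -0.09 for FW against AB (interval -0.89 to 0.70, adjusted p = 0.860) and 0.82 for SD against AB (interval 0.02 to 1.62, adjusted p = 0.0760). In the fit of the SD and AB groups alone HTP1 was called (0.82, adjusted p = 0.0395). The FW and AB groups differed in 42.1% of all tested genes (21.9% higher under FW, 20.2% lower), against 2 of 3 members. For SD against AB the share was 54.2% (28.3% higher under SD, 25.9% lower), again against 2 of 3 members. The libraries did not overlap in 2 of 3 and 3 of 3 members, against 55.8% and 63.6% of all tested genes.

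Between FW and SD the call fell on HTP3, which was higher under FW by 0.67 (SE 0.19, adjusted p = 0.0213) although SD replicate 3, at 1348 CPM, lay above FW replicate 2, at 1308 CPM. This call was lost without FW replicate 1 or 3 or SD replicate 1 or 2, with log2 fold changes of 0.62, 0.60, 0.66 and 0.51 (adjusted p 0.0592 to 0.0706). HTP1 was lower under FW in every library, at a log2 fold change of -0.92 (interval -1.72 to -0.12, adjusted p = 0.0868), and DESeq2 called it (-0.91, adjusted p = 0.0474). HTP2 differed by 0.18 (interval -0.26 to 0.63, adjusted p = 0.549). Of all tested genes 25.4% were called here, 13.3% higher under FW and 12.1% lower, and the libraries of 39.6% did not overlap, against 1 of 3 members in each count.

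Within the tandem pair HTP2 and HTP3 were also compared as a ratio of counts in the same library. The 3-day controls held 27.7, 22.8 and 37.0 HTP3 counts for each HTP2 count. The ratio was 13.6, 13.1 and 14.9 under FW, 11.6, 7.28 and 10.9 under SD, and 4.54, 7.56 and 5.09 under AB. Every exposed library lay below every control, and FW lay above SD and AB without overlap, while SD and AB overlapped. On the log2 scale, with 1 count added, HTP2 gained on HTP3 by 1.04 under FW, 1.55 under SD and 2.36 under AB. Each of these had p = 0.1 in a two-sided exact permutation test of 3 against 3 libraries, the smallest p this design allows (0.14 after Benjamini-Hochberg adjustment over 7 comparisons). None of the 7 ratio comparisons could pass 0.05 in this design, so the unequal size of the changes rests on the values alone.

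At 7 days the levels of the pair were low with and without AB. HTP3 had 2.99 and 4.37 CPM in the 7-day controls, against 1757 to 1906 CPM in the 3-day controls, each batch being scaled on its own. HTP2 had 0.716 and 0.655 CPM, from 28 and 18 counts, against 51.5 to 77.1 CPM at 3 days. HTP1 had 100.7 and 150.8 CPM, against 31.8 to 95.3 CPM at 3 days. The 7-day controls thus held little of the 2 transcripts that fell under AB at 3 days, and both had more HTP1 than any 3-day control.

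The AB pellets at 7 days were compared with these controls. No HTP gene was called by edgeR, where 3.28% of 10192 tested genes were (0.873% higher, 2.40% lower), although 2 of the 3 had an unadjusted p under 0.05 and DESeq2 called the same 2. HTP1 had 8.44, 39.3 and 4.76 CPM under AB in replicates 1, 2 and 3, all below both controls. The fitted change was -2.85 on the log2 scale (interval -4.97 to -0.72, adjusted p = 0.141 in edgeR and 0.0131 in DESeq2). Without AB replicate 2 it was -4.26 (adjusted p = 0.0217). HTP2 had 4.64, 1.62 and 1.52 CPM, from 149, 42 and 54 counts, all above both controls. Its log2 fold change was 1.91 (interval 0.29 to 3.53, adjusted p = 0.176 in edgeR and 0.0453 in DESeq2).

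HTP3 had 11.1, 3.60 and 4.56 CPM under AB at 7 days and overlapped with the controls (log2 fold change 0.81, interval -0.60 to 2.21, adjusted p = 0.482). AB replicate 1 was the highest of the 5 libraries for HTP2 and for HTP3. In 2 of 3 members the libraries did not overlap, as in 40.6% of all tested genes. The number of genes called in this comparison, 334, ranged from 0 without control replicate 2 (1661 at an unadjusted p under 0.05) to 689 without AB replicate 2. It was 78 without control replicate 1, 208 without AB replicate 1 and 164 without AB replicate 3. HTP3 counts for each HTP2 count were 4.18 and 6.67 in the controls and 2.40, 2.21 and 3.00 under AB (difference 1.03 on the log2 scale, exact permutation p = 0.2, the smallest possible for 3 against 2).

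The AB responses at 7 and 3 days differed for all 3 genes, in a comparison where 27.9% of 11057 tested genes were called, 13.9% higher and 14.1% lower. The response at 7 days minus that at 3 days was 6.44 for HTP3 (SE 0.58, adjusted p = 3.28e-06), 5.17 for HTP2 (SE 0.59, adjusted p = 2.33e-05) and -3.18 for HTP1 (SE 0.89, adjusted p = 0.0149). All 3 calls held without any 1 of 11 libraries, with an adjusted p of up to 0.0488 for HTP1. This fit used 1 estimate of spread per gene for both batches. Its common biological coefficient of variation was 0.288, against 0.188 at 3 days and 0.455 at 7 days when fitted apart. The 7-day changes alone had SEs of 0.58 for HTP3, 0.67 for HTP2 and 0.88 for HTP1. The SEs and p-values of the differences may therefore understate the noise at 7 days. For HTP3 the difference followed from a change of -5.64 at 3 days and of 0.81 at 7 days. For HTP2 it followed from a change of -3.27 at 3 days and of 1.91 at 7 days. The 7-day changes were not called by edgeR, and the 7-day controls held little of either transcript. For HTP1 it followed from a change of 0.33 at 3 days and of -2.85 at 7 days. Time and batch cannot be told apart in these differences.

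The gene models next to the HTP genes were examined on the same scale. Of the 10 models within 5 places of the pair on scaffold 12, 9 were tested, and under AB at 3 days 3 were higher and 3 lower, where 62.4% of all tested genes were called. Their log2 fold changes lay between -1.10 and 0.90 with a median of 0.21, against -3.27 and -5.64 for HTP2 and HTP3. TRAVEDRAFT_52550 begins 736 bases after HTP3 on the same strand and had a log2 fold change of 0.06 under AB (adjusted p = 0.790). TRAVEDRAFT_52547, the model 289 bases before HTP2, had no counts in any library. Under FW 2 of the 9 rose and 4 fell (median -0.33), where 45.8% of all tested genes were called, and under SD 1 rose (median -0.16), where 21.1% were. TRAVEDRAFT_60881, 2 places before HTP2, rose under FW by 0.98 (adjusted p = 0.00205), where HTP2 rose by 0.86. It also rose under AB by 0.52 (adjusted p = 0.0448), where HTP2 fell, and was not called under SD (0.45, adjusted p = 0.142), where HTP2 was. At 7 days the lowest adjusted p among the 9 was 0.0754, for TRAVEDRAFT_40115.

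Of the 10 models around HTP1, 8 were tested at 3 days. Under FW 5 were higher and 1 lower (median 0.61), under SD 2 were higher (median 0.13), and under AB 2 were higher and 3 lower (median -0.21). The shares called over all tested genes were 45.8%, 21.1% and 62.4%. TRAVEDRAFT_26966, which lies 1060 bases below HTP1 on the same strand, had a log2 fold change of -1.74 under AB (adjusted p = 6.31e-05), and TRAVEDRAFT_162430, 305 bases above it, had -0.34 (adjusted p = 0.0152). TRAVEDRAFT_26973, 5 places above HTP1, rose by 3.33 under SD (adjusted p = 1.31e-05) and by 2.64 under FW (adjusted p = 6.04e-06) and fell by 1.29 under AB (adjusted p = 0.000875) on the log2 scale. HTP1, with 1.15, 0.23 and 0.33 under SD, FW and AB, was called under SD alone.

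**Figure D4:**
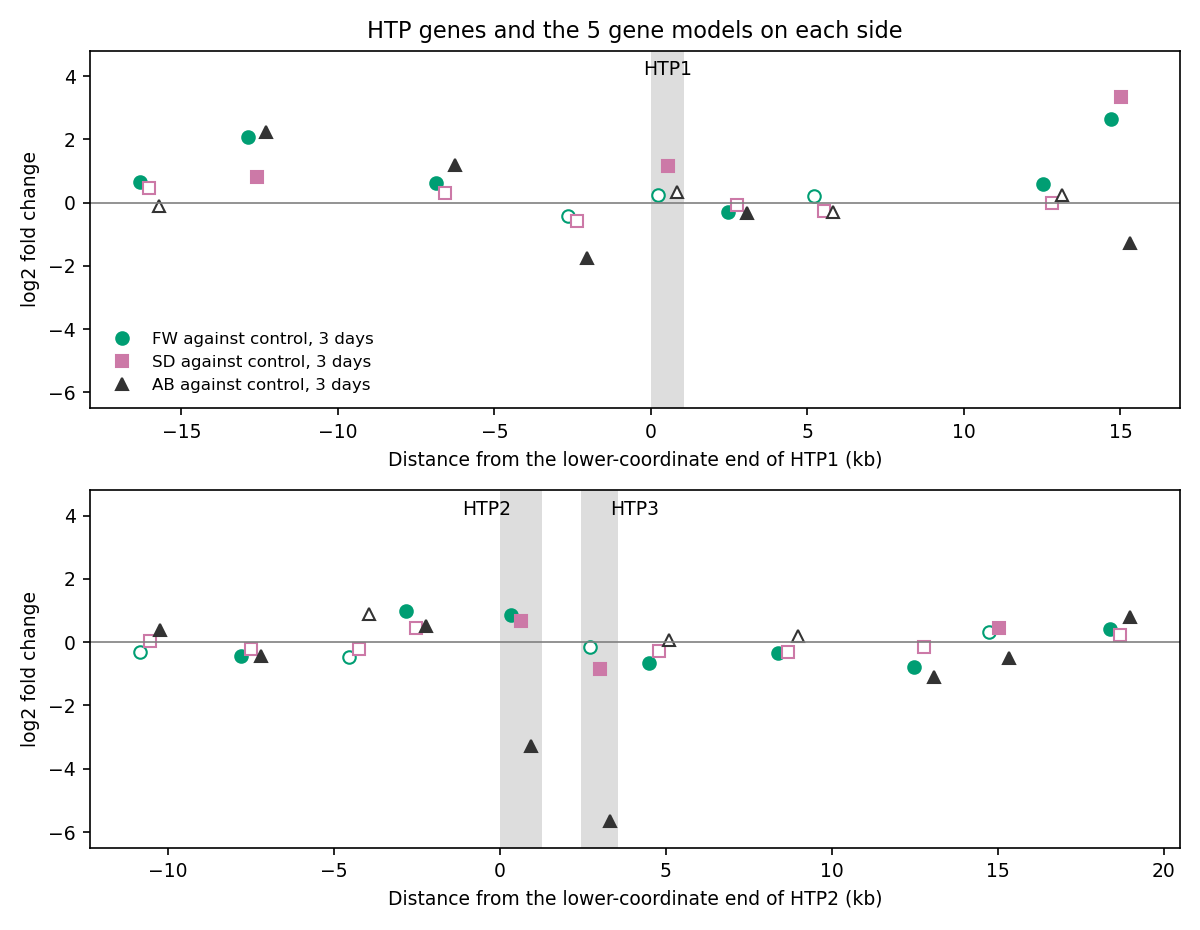
Log2 fold change under FW, SD and AB against control at 3 days of the HTP genes (grey bands) and the tested models within 5 places, by distance in kb; symbols are set slightly apart, and filled ones have an adjusted p under 0.05. HTP2 and HTP3 under AB lie at -3.27 and -5.64, below all neighbours, whose lowest value is -1.74 near HTP1 and -1.10 near the pair.

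HTP genes were then placed among the 31 heme peroxidase genes that carry a symbol, by mean RPKM. HTP3 ranked 1st in the 3-day controls, at 1982 ± 93.6 RPKM, ahead of the versatile peroxidase VP2 at 758 ± 198 RPKM. Under SD HTP3 was also 1st, at 1109 ± 342 RPKM against 969 ± 77.6 for VP2, and under FW it was 2nd, at 1767 ± 288 against 2023 ± 1007 for VP2, and in both groups the ranges of the 2 genes overlapped. Under AB at 3 days HTP3 ranked 4th, at 39.6 ± 2.48 RPKM. HTP1 was 3rd there, at 73.4 ± 17.4 RPKM (range 57.7 to 92.1), behind the manganese peroxidases MnP10s, at 358 ± 230, and MnP1s, at 160.1 ± 93.2, whose lowest library (78.2 RPKM) lay within the range of HTP1. In the 7-day controls HTP1 ranked 2nd, at 124 ± 35.0 RPKM, behind VP2, at 255 ± 10.1. The next gene, the versatile peroxidase VP3at, had 83.3 ± 90.6 RPKM, and its libraries, at 19.2 and 147 RPKM, overlapped with those of HTP1. HTP3 ranked 11th and HTP2 21st there. Under AB at 7 days HTP1 ranked 3rd, at 17.3 ± 18.8 RPKM, behind MnP10s and MnP1s. The libraries of MnP1s ranged from 3.94 to 141 RPKM and spanned those of HTP1, at 4.70 to 38.9 RPKM. HTP3 ranked 5th, at 7.06 ± 4.51 RPKM, and HTP2 11th, at 2.24 ± 1.53 RPKM. MnP3s, between HTP1 and HTP3 in this order, ranged from 0.392 to 23.9 RPKM and overlapped with both. The genes ranked next after HTP3, MnP11s, the lignin peroxidase LiP12 and VP2, also overlapped with HTP3.

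Of the 28 heme peroxidases other than the HTP genes, 26 were tested at 3 days, and under AB 6 were higher and 11 lower, a total near the 62.4% of all tested genes that were called (29.8% higher, 32.6% lower). Their median log2 fold change was -0.83, against -0.06 for all tested genes. Under FW 13 were higher and 3 lower (median 0.63, against -0.01), where 22.4% of all tested genes were higher and 23.4% lower. Under SD 6 were higher and 1 lower (median 0.27, against -0.01), where 10.3% of all tested genes were higher and 10.9% lower. Among them VP2 had a log2 fold change of -8.26 under AB (adjusted p = 8.42e-09) and the dye-decolorising peroxidase DyP2 one of -6.55 (adjusted p = 2.21e-05), both more negative than HTP3. MnP1s and MnP10s rose by 5.07 (adjusted p = 2.97e-07) and 4.70 (adjusted p = 1.04e-06).

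For each HTP gene the 3 genes of most similar pattern at 3 days were found among 6661 other genes that averaged 10 CPM or more over the 3-day libraries. This filter favours genes that are high at 3 days, so lower levels at 7 days are not read as a result. The measure was the root mean square difference of the centred group means of log2(CPM + 1) over the 4 groups. HTP1 had 2108 genes within 0.5 of its pattern, HTP2 had 29 and HTP3 had 18. HTP2 was the 90th closest gene to HTP3, at 0.90, and HTP1 was the 3849th, at 2.37.

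Closest to HTP3 was TRAVEDRAFT_128410 (scaffold 8, 1497060 to 1498940), at a difference of 0.22. It had mean levels of 301 CPM in control and FW, 188 under SD and 8.04 under AB at 3 days. TRAVEDRAFT_20994 (0.24) and TRAVEDRAFT_24458 (0.26) followed, with 54.9 and 79.4 CPM in the 3-day controls and 0.471 and 0.593 CPM under AB. Their fitted log2 fold changes under AB were -6.85 and -7.05, against -5.64 for HTP3. The 1 added to CPM in the measure shrinks differences at such low levels, so both patterns are less alike than it shows. At 7 days, which the choice did not use, TRAVEDRAFT_128410 had 14.0 CPM in the controls and 19.8 under AB. TRAVEDRAFT_20994 had 0.516 and 0.720 CPM and TRAVEDRAFT_24458 had 0.199 and 0.287 CPM.

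Closest to HTP2 were TRAVEDRAFT_66281 (scaffold 10, 152011 to 153846), at a difference of 0.12, TRAVEDRAFT_50176 (0.18) and TRAVEDRAFT_156714 (0.19). TRAVEDRAFT_66281 had 46.0 CPM in the 3-day controls, 68.6 under FW, 71.0 under SD and 4.44 under AB, and at 7 days 0.503 CPM in the controls and 0.547 under AB. The other two had 6.57 and 4.58 CPM in the 7-day controls. They fell there under AB, with log2 fold changes of -3.20 (adjusted p = 0.0366) and -2.96 (adjusted p = 0.0459), where HTP2 had 1.91 and was not called. Closest to HTP1 were TRAVEDRAFT_120993 (scaffold 5, 191719 to 192182), at a difference of 0.11, TRAVEDRAFT_72371 (0.15) and TRAVEDRAFT_46378 (0.15). Their log2 fold changes under AB at 7 days were 0.98, 0.16 and 1.04, none of them called, against -2.85 for HTP1. In the 3-day and 7-day controls TRAVEDRAFT_120993 had means of 51.5 and 61.1 CPM, TRAVEDRAFT_72371 had 27.2 and 4.79 CPM, and TRAVEDRAFT_46378 had 17.3 and 3.68 CPM. Time and batch cannot be told apart in these levels.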

How the data were processed

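The authors deposited whole-number read counts per gene model in 2 tables, 1 for the 12 libraries at 3 days and 1 for the 5 at 7 days. The submitters' processing notes name HISAT2 and featureCounts. Which versions, build, strandedness and multi-mapping settings were used is not given in the sources read here. Gene lengths are those listed in the deposited tables per the file headers. Of 14296 models 14214 matched a RefSeq gene (assembly Trametes versicolor v1.0) by start and end, and 42 carry a symbol. No sequence was used.

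Comparisons were fitted in R 4.3.3 with edgeR 4.0.16 (TMM scaling, the default filter on low counts) and tested two-sided by its quasi-likelihood F test, adjusted by Benjamini-Hochberg over all tested genes and called at 0.05. The 3-day fit held 12 libraries (10838 genes), the 7-day fit 5 (10192) and the fit of the response difference 17 (11057). SEs are the absolute log2 fold change over the root of F. Intervals are 95% confidence intervals of the fitted log2 fold change, from its SE and each gene's total degrees of freedom. They do not give the range of single libraries. Levels in CPM use the TMM-scaled library sizes, and RPKM is CPM per kilobase of model. Every p-value rests on the spread between libraries, which the titles number as biological replicates.

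The settings tried beside these were DESeq2 1.42.0, RLE size factors, no filter, leaving out each library, a replicate block, and fits of the compared groups alone. The genes named were HTP1 to HTP3, their 5 neighbours on each side, heme peroxidases with a symbol, and the 3 genes of most similar pattern for each member. Within these lists, the genes singled out were chosen after their values were seen. The members and lists were chosen with earlier results of these data known.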

Additional observations from a re-analysis of the deposited data

Results flagged for a closer look

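The response to AB differed between 7 and 3 days in a test of the difference itself for each of the 3 genes. Of 11057 tested genes 27.9% were called in this test. The difference was 6.44 for HTP3, 5.17 for HTP2 and -3.18 for HTP1 on the log2 scale (adjusted p = 3.28e-06, 2.33e-05 and 0.0149 by edgeR). HTP3 fell under AB in 3 of 3 libraries at 3 days and overlapped with the controls at 7 days. HTP2 was below all controls in 3 of 3 AB libraries at 3 days and above both in 3 of 3 at 7 days. HTP1 lay within the control range in 3 of 3 AB libraries at 3 days and below both controls in 3 of 3 at 7 days. The libraries of AB and control did not overlap in 69.0% of all tested genes at 3 days and in 40.6% at 7 days. None of the 3 genes was called at 7 days by edgeR. The 7-day controls held only 28 and 18 counts of HTP2, and 2.99 and 4.37 CPM of HTP3. The test of the difference used 1 estimate of spread per gene for both batches, although the 7-day batch was noisier. The 2 times come from batches with separate controls, and time and batch cannot be told apart.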

How the results depend on the processing

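Under RLE size factors and without the filter, each HTP gene kept its direction and its side of the threshold in all 8 comparisons, and plain CPM moved no level by more than its SD. HTP1 was called with the replicate block between FW and SD (-0.85) and between SD and AB (0.70), with DESeq2 between FW and SD (-0.91) and at 7 days (-2.82), and in the fit of the 2 groups alone between SD and AB (0.82), where its SD call was lost (1.17, adjusted p = 0.0947). HTP2 was called at 7 days with DESeq2 (1.95). HTP3 lost its call between FW and SD in the fit of the 2 groups alone (0.67, adjusted p = 0.0770). Same-numbered libraries did not deviate together throughout at 3 days (correlations of -0.17 to 0.39, 7 of 18 above 0.1), so the numbers were not taken to pair the samples. At 7 days the correlations were -0.22 and -0.19. Deviations were taken from group means, so the 2 controls at 7 days are mirror images and these values say little about pairing. Among control, FW and SD, however, all 6 same-numbered pairs of replicates 2 and 3 had correlations of 0.18 to 0.39. This is a hint from the data and not from the design, in a subset picked after the values were seen. Same-numbered pairs of replicate 1 among these groups had 0.07, -0.06 and -0.17. Of the 36 pairs with different numbers at 3 days 9 were above 0.1, the highest at 0.32. The pairs of replicate 2 with replicate 3 had -0.40 to -0.22, which is not separate support, because centring ties the 2 sets of values together. At 7 days DESeq2 moved the genes called from 334 to 1337. The fit with the replicate block called 205 there, and it also had to leave out AB replicate 3, which has no control of its number; leaving that library out without a block gave 164. Leaving out 1 library moved HTP1 under SD between 0.72 and 1.67, HTP2 under SD between 0.53 and 0.83, HTP3 between FW and SD from 0.51 to 0.96, HTP1 under AB from 0.025 to 0.85 at 3 days and from -4.26 to -2.38 at 7 days. Results that were not called changed sign for HTP1 under FW (-0.069 without control replicate 3; range -0.069 to 0.75), HTP3 under FW (0.015 without FW replicate 2; range -0.24 to 0.015) and HTP1 between FW and AB (0.026 and 0.10 without FW or AB replicate 3; range -0.27 to 0.10). Genes called ranged from 1361 to 2379 under SD and from 0 to 689 at 7 days. Without division by length, mean shares were 96.6% for HTP1 and 2.83% for HTP3 in the 7-day controls, and for HTP2 3.33%, 6.47% and 8.29% in control, FW and SD at 3 days. With 5 counts added in place of 1, the ratio of HTP2 to HTP3 kept its direction in all 7 comparisons. At 7 days the 18 to 149 HTP2 counts of a library and the 5 libraries limit precision. No alternative tested how a different strain or read-mapping choice would move the pair.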
